A study of Mus musculus with 9 samples.

Results

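Embryonic mouse kidneys that carried the *Foxd1* GFP-Cre allele were compared with kidneys that carried no Cre. RNA from whole kidneys at E15.5 (embryonic day) was sequenced in 9 libraries, 3 of each of 3 genotypes. *Foxd1*GC/+;*Ntn1*fl/fl (MUT, homozygous for the floxed netrin 1 gene) and *Foxd1*GC/+;*Ntn1*fl/+ (HET, with 1 floxed and 1 intact *Ntn1* allele) made up the 6 Cre libraries, and *Ntn1*fl/fl kidneys (WT) the 3 Cre-free libraries. The floxed allele was thus present in all 9 kidneys, and the WT kidneys had 2 floxed alleles that no Cre could recombine. The GC allele places GFP-Cre in the *Foxd1* gene, so each Cre kidney had 1 *Foxd1* copy disrupted, expressed GFP-Cre in the stromal lineage and could delete *Ntn1* there. These differences came together in every Cre kidney and cannot be told apart by comparing Cre with WT. The values are FPKM, fragments per kilobase of transcript scaled to the size of the library. Of 24138 loci, 10076 had a mean of at least 5 FPKM on either side and were compared on log2(FPKM + 1). A locus was singled out where all 6 Cre libraries lay above, or all 6 lay below, the range of the 3 WT libraries. This held for 36 loci, 25 higher and 11 lower in the Cre kidneys.

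*Foxd1* encodes a forkhead transcription factor of the stromal progenitors that surround the nephron progenitor caps in the outer cortex of the developing kidney. Their descendants include interstitial fibroblasts, pericytes, vascular smooth muscle cells, mesangial cells and the renin-producing cells of the arterioles. Netrin 1 is a secreted guidance ligand for axons and vessels that stromal progenitors produce. Epithelia of the kidney arise elsewhere, the nephron from nephron progenitors and the collecting duct and the lining of the ureter from the ureteric bud. In RNA of a whole kidney, fewer cells of a type and less RNA per cell cannot be told apart.

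All 6 Cre libraries were lower than every WT library for *Ntn1*, *Foxd1*, renin and the connexin gene *Gja5*, and all 6 were higher for a group of epithelial genes that included *Fxyd3*, *Krt19*, *Cldn4*, *Plet1* and *Sprr2g*. The 36 loci made up 0.357% of those tested, the higher ones 0.248% and the lower ones 0.109%. These are the values that chose the loci, so they are given as a description. In a test of every locus with limma, *Fxyd3* passed an adjusted p of 0.05 (0.00992% of the loci tested), 69 loci had an unadjusted p under 0.05 (0.685%, 39 higher and 30 lower), and the next smallest adjusted p was 1.00. The 69 are likewise a smaller share than the 0.05 that an unadjusted p would pass if no locus differed. Over all loci tested the median log2 difference between Cre and WT was 0.00, and 51.2% had a higher mean in the Cre kidneys.

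The sequences around the start sites of 5 of these genes are shown because the data separate their levels between Cre and WT. Each runs 300 bases across a start site in RefSeq (GRCm38.p6), 5′ to 3′ on the strand of the gene. Capitals mark letters that match a TATA box (TATAAA), an AP-1 site (TGANTCA) or a GC box (GGGCGG), searched on both strands. A match to these letters is a description of the sequence and not a binding site.
Fxyd3 (higher in Cre, chr7:31076648-31076947, minus strand): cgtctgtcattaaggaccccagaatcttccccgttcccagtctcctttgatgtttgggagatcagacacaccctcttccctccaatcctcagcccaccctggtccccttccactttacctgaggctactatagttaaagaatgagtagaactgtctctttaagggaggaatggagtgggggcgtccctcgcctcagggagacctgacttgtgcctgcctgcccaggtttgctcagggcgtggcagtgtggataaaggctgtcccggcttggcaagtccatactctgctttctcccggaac
Cldn4 (higher in Cre, chr5:134946885-134947184, minus strand): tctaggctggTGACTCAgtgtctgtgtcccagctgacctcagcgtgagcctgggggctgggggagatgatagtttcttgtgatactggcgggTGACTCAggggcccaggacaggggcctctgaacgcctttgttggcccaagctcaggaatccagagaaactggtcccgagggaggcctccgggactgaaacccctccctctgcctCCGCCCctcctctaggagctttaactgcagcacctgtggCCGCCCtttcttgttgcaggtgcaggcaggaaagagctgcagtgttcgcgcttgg
Foxd1 (lower in Cre, chr13:98353995-98354294, plus strand): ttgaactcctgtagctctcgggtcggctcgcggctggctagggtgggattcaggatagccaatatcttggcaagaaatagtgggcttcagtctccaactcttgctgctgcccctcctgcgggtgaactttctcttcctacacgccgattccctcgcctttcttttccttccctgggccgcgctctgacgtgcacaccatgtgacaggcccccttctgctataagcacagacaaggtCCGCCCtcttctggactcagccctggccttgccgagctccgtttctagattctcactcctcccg
Ren1 (joined with Ren2 in the table, the locus lower in Cre, chr1:133350424-133350723, plus strand): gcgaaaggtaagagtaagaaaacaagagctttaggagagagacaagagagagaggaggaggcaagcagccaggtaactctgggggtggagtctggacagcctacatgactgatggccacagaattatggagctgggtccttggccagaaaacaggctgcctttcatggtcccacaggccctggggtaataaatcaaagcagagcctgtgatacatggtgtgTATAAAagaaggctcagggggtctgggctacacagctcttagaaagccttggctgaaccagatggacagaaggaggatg
Gja5 (lower in Cre, chr3:97032152-97032451, plus strand): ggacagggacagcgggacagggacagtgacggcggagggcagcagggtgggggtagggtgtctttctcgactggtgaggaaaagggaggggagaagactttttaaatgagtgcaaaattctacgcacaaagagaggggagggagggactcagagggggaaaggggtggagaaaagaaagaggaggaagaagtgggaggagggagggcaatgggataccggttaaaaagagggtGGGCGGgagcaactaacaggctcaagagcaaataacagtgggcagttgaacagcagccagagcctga

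The *Fxyd3* window held none of these letters, nor a cyclic AMP response element (TGACGTCA) or a Grainyhead-like site (AACCNGTT). The *Cldn4* window held 2 AP-1 matches, whose letters fit both strands, and 2 GC boxes on the strand opposite to that shown. The *Ren1* window held a TATA box, and those of *Gja5* and *Foxd1* held 1 GC box each. RefSeq windows were matched for 17 of the genes higher and 8 of the genes lower in Cre. A GC box was found for 13 of the 17 and 7 of the 8, beside 38.2% of all 27025 genes with a window. Those 27025 were not limited to genes that passed the FPKM minimum, as the singled-out genes were. The share among the loci tested was not computed, so nothing is read from these comparisons. AP-1 letters were found for 3 of the 17 (*Plet1*, *Nts* and *Cldn4*) and 0 of the 8, beside 8.97% of all genes, and a TATA box for 2 of the 17 (*Plet1* and *Gadd45b*) and 1 of the 8 (*Ren1*), beside 15.7%. The cyclic AMP and Grainyhead-like letters were found in 0 of these windows, beside 2.03% and 2.35% of all genes.

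The targeted gene and the gene of the knock-in were examined first, as a check of the Cre and Cre-free labels. *Ntn1* (chromosome 11, 68209364 to 68386826) had 26.1, 28.9 and 17.8 FPKM in WT-1 to WT-3. The HET libraries had 12.3, 12.02 and 16.5 FPKM and the MUT libraries 10.8, 16.5 and 11.04 FPKM. The groups did not overlap, although HET-3 and MUT-2 came close to WT-3, the lowest WT library. *Ntn1* was 45.6% lower in the Cre kidneys (log2 difference -0.82, standard error 0.17). Leaving out WT-3 moved the difference to -1.02. The reading is that of the whole locus, and RNA from recombined and intact alleles is read together.

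*Foxd1* (chromosome 13, 98354245 to 98356705) had 33.7, 33.4 and 25.8 FPKM in the WT libraries. It had 21.7, 20.2 and 21.5 FPKM in HET and 24.8, 22.5 and 24.3 FPKM in MUT. Every Cre library was lower than every WT library, and the 3 HET libraries were also lower than the 3 MUT libraries. The level was 27.4% lower in Cre than in WT (log2 difference -0.44, standard error 0.10). WT-3 was again the lowest WT library, and the difference without it was -0.56. Between MUT and HET the log2 difference of *Foxd1* was 0.17 (standard error 0.11, adjusted p = 0.843 from limma over all loci), and that of *Ntn1* was -0.10 (standard error 0.20, adjusted p = 0.927). MUT-2 had more *Ntn1* than HET-1 and HET-2, so these levels do not check which Cre kidneys had 1 and which had 2 floxed alleles.

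Most stromal genes tested overlapped between the groups, as did most of all loci tested. Of 21 stromal progenitor and interstitial genes tested, 2 were singled out, *Ntn1* and *Foxd1*, beside 0.357% of all loci tested. Of the other 19, 14 had a higher mean in Cre, beside 51.2% of all loci, with a median log2 difference of 0.06. The transcription factor gene *Tcf21* had 147.9 to 156.8 FPKM in WT and 136.8 to 184.7 FPKM in the Cre kidneys, and the groups overlapped. The largest differences among the 19 were those of *Lum* and *Dcn*, with log2 differences of 0.40 and 0.35 (unadjusted p from limma 0.0336 and 0.0304). *Lum* had 25.8 to 37.2 FPKM in WT and 31.4 to 53.2 in Cre, and *Dcn* 78.4 to 99.5 and 98.3 to 143.8. Among the netrins and netrin receptors, 6 of 14 genes were tested, and *Ntn1* was the 1 singled out, beside 0.357% of all loci tested. The receptor genes *Unc5b*, *Unc5c* and *Neo1* had log2 differences of -0.01, -0.09 and 0.04, with unadjusted p from 0.456 to 0.937.

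Renin, the protease that starts the angiotensin cascade, showed the second largest difference among the lower loci. The table joins the near-identical *Ren1* and *Ren2* at 1 locus (chromosome 1, 133350566 to 133360323), so reads of the pair cannot be assigned to either gene. The locus had 149.0, 137.0 and 136.0 FPKM in WT, 108.0, 114.9 and 69.4 FPKM in HET and 75.2, 105.6 and 64.3 FPKM in MUT. The 3 WT libraries lay close together and the Cre libraries ranged widely below them, with HET-3, MUT-1 and MUT-3 the lowest. The mean was 36.3% lower in Cre (log2 difference -0.68, standard error 0.19).

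*Gja5* (chromosome 3, 97032402 to 97053634) encodes a connexin that couples arterial endothelial cells and renin cells. It had 8.73, 9.41 and 9.07 FPKM in WT, 7.91, 8.61 and 8.18 FPKM in HET and 7.51, 8.38 and 6.52 FPKM in MUT. The highest Cre value lay just under the lowest WT value, and the log2 difference was -0.19 (standard error 0.10). *Akr1b7*, an aldo-keto reductase that marks renin cells, was not singled out, since WT-1 with 14.5 FPKM fell among the Cre libraries (9.19 to 16.0 FPKM), while WT-2 and WT-3 had 23.4 and 20.6 FPKM. Its log2 difference was -0.63 (standard error 0.18, unadjusted p = 0.00447). In a list of renin cell and renin-angiotensin genes put together after the singled-out loci were seen, 9 of 11 tested genes had a lower mean in Cre, with a median of -0.11. Without WT-1 the median of the list was 0.04. Of the 9 that were not singled out, 7 had a lower mean, with a median of -0.02, while 51.2% of all loci tested had a higher mean. The smooth muscle genes *Acta2* (54.7 to 72.1 FPKM in WT, 52.4 to 95.0 in Cre) and *Myh11* (2.54 to 4.59 in WT, 3.16 to 7.33 in Cre) overlapped between the groups. For *Myh11*, HET had 5.61, 7.33 and 6.18 FPKM, all above WT, and MUT had 4.77, 3.16 and 3.70 FPKM. *Actg2*, also of smooth muscle, had 3.16 to 4.79 FPKM in WT, 8.24 to 16.3 in HET and 4.06 to 5.55 in MUT. Its log2 difference between Cre and WT was 0.67 (standard error 0.33). Of 13 mural, renin and smooth muscle genes tested, 7 had a higher mean in Cre, beside 51.2% of all loci tested.

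**Figure D1:**
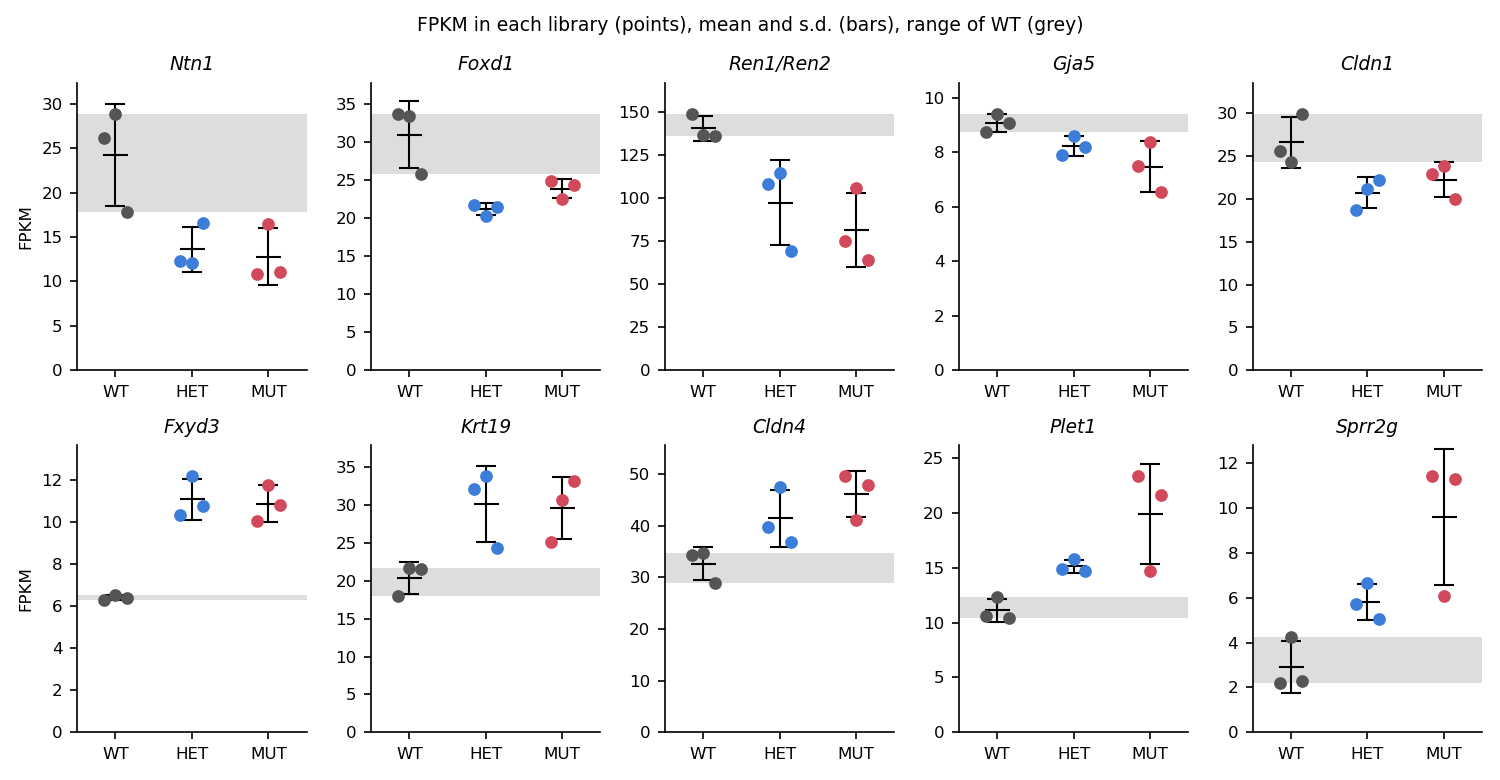
FPKM (y axis, from 0) of 10 singled-out loci in each library (points) by genotype, with the mean and s.d. of 3 libraries (bars) and the range of the WT libraries (grey band). No HET or MUT point enters the band: *Ntn1* has 10.8 to 16.5 FPKM in Cre and 17.8 to 28.9 in WT, and *Fxyd3* 10.1 to 12.2 in Cre and 6.29 to 6.56 in WT.

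The remaining lower loci showed smaller differences. *Cldn1* (chromosome 16, 26356646 to 26371839), a tight junction claudin, had 25.6, 24.3 and 29.9 FPKM in WT and 18.7 to 23.8 FPKM (median 21.7) in Cre, a log2 difference of -0.30 (standard error 0.10). *Cpm*, a membrane carboxypeptidase, differed by -0.15, with WT libraries between 8.13 and 8.32 FPKM and Cre libraries between 6.95 and 7.54 FPKM. *Tarsl2* (a threonyl-tRNA synthetase), *Dusp3* (a phosphatase), *Osbpl1a* (an oxysterol-binding protein), *Stau2* (an RNA-binding protein) and *Slc35f2* (a solute carrier) had log2 differences from -0.13 to -0.10. For 7 of the 11 lower loci the difference was under 0.2 in size. The median WT range of these 11 loci was 0.11 on the log2 scale, beside 0.34 over all loci tested, so small differences met the rule at loci where the 3 WT libraries lay close together.

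Among the higher loci, the leading genes are known from surface epithelia and from the ureteric epithelium and its lining. *Fxyd3* (chromosome 7, 31059935 to 31076697), a regulator of the sodium pump, had 6.29, 6.56 and 6.41 FPKM in WT. It had 10.3, 12.2 and 10.7 FPKM in HET and 10.1, 11.8 and 10.8 FPKM in MUT. The groups were far apart beside their spread, with a gap of 0.55 on the log2 scale between the highest WT and the lowest Cre library, the widest of the 36 loci. The mean was 1.71-fold higher in Cre (log2 difference 0.69, standard error 0.08, limma, Benjamini-Hochberg adjusted p = 0.0337). It was higher in 6 of 6 Cre libraries, as the rule requires of every higher locus. The adjusted p from limma was over 0.05 when any of the 9 libraries was left out, from 0.05001 without MUT-1 to 0.280 without WT-1.

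*Sprr2g* (chromosome 3, 92373915 to 92375229), a small proline-rich protein of the epithelial envelope, showed the largest difference. It had 2.20, 4.26 and 2.27 FPKM in WT, 5.71, 6.65 and 5.05 FPKM in HET and 11.4, 6.08 and 11.3 FPKM in MUT. MUT-1 and MUT-3 stood above the other Cre libraries, and WT-2 was the highest WT library. The log2 difference was 1.13 (standard error 0.26). *Sprr2* genes lie in a cluster of similar copies, so reads may be split among them. Both other *Sprr* genes tested also had higher means in Cre (*Sprr1a* 7.11 to 18.8 FPKM against 4.64 to 11.2 in WT, and *Sprr2f* 7.37 to 15.2 against 5.90 to 7.59), but with overlap.

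*Krt19* (chromosome 11, 100140811 to 100145919), a keratin of simple epithelia and the collecting duct, had 18.0, 21.7 and 21.5 FPKM in WT, 32.1, 33.8 and 24.4 FPKM in HET and 25.1, 30.6 and 33.1 FPKM in MUT. HET-3 and MUT-1 were the Cre libraries nearest to WT. The log2 difference was 0.52 (standard error 0.12). Its usual partners *Krt8* and *Krt18* had log2 differences of 0.15 and 0.13 and overlapped.

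*Cldn4* (chromosome 5, 134945124 to 134946934), a claudin of the collecting duct, had 34.2, 34.8 and 29.0 FPKM in WT, 39.8, 47.5 and 36.9 FPKM in HET and 49.6, 41.1 and 47.8 FPKM in MUT. The log2 difference was 0.41 (standard error 0.11), in the direction opposite to that of *Cldn1*. Over the 14 claudin genes tested, 8 had a higher and 6 a lower mean in Cre, with a median of 0.02. *Plet1* (chromosome 9, 50488799 to 50505639), a surface protein of epithelial progenitors, had 10.6, 12.3 and 10.5 FPKM in WT, 14.9, 15.8 and 14.7 FPKM in HET and 23.3, 14.7 and 21.6 FPKM in MUT, a log2 difference of 0.59 (standard error 0.15).

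*Pllp* (plasmolipin, a membrane protein of myelin and epithelia) and *Ctse* (cathepsin E, an aspartic protease) differed by 0.56 and 0.51. *Pllp* had 3.75, 4.21 and 3.63 FPKM in WT and 4.46 to 7.97 FPKM (median 6.27) in Cre, and *Ctse* had 4.50, 5.45 and 5.01 FPKM in WT and 6.04 to 10.1 FPKM (median 7.26) in Cre.

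A list of 28 urothelial and ureteric stalk genes was put together after these loci were seen, so its count is not independent evidence of their direction. Of 16 tested, 14 had a higher mean in Cre and 5 were singled out, beside 51.2% and 0.248% of all loci tested, and nothing is read from this, since the list was drawn up around those 5. Of the 11 that were not singled out, 9 had a higher mean, with a median log2 difference of 0.15. *Cldn7* had 47.2 to 60.4 FPKM in WT and 56.3 to 78.7 FPKM in Cre, and the transcription factor gene *Elf3* had 7.35 to 10.6 and 9.08 to 14.7 FPKM. The uroplakins, which define the urothelial surface, did not separate the groups. *Upk3a* was the 1 of 6 uroplakin genes with enough signal to test (9.65 to 13.4 FPKM in WT, 8.98 to 20.3 in Cre, log2 difference 0.15). Of 16 ureteric epithelium genes tested, 14 had a higher mean in Cre with a median of 0.11, and *Krt19* was the 1 singled out. The shares over all loci tested were again 51.2% and 0.248%. *Ret*, the receptor of the ureteric tip, had 7.53 to 12.4 FPKM in WT and 8.01 to 15.4 FPKM in Cre.

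Genes of stress and growth arrest formed a smaller part of the higher loci. *Cdkn1a*, an inhibitor of cyclin-dependent kinases that p53 activates, had 11.7, 11.3 and 11.0 FPKM in WT and 11.95 to 15.4 FPKM (median 13.6) in Cre, a log2 difference of 0.23 (standard error 0.09). *Gadd45b*, a gene induced by stress and DNA damage, had 6.57, 6.39 and 6.19 FPKM in WT and 7.04 to 9.29 FPKM (median 8.55) in Cre, a log2 difference of 0.35 (standard error 0.10). *Ddit4*, an inhibitor of mTOR signalling, differed by 0.16 and *Dedd2*, a death effector domain protein, by 0.20. Of 13 p53 target genes tested, 8 had a higher mean in Cre, and *Cdkn1a* was the 1 singled out, beside 51.2% and 0.248% of all loci tested. *Mdm2*, *Ccng1* and *Sesn1* had log2 differences of -0.08, -0.01 and 0.00. *Phlda3*, *Bbc3* and *Btg2* had log2 differences of 0.23, 0.18 and 0.16 and overlapped between the groups. For *Phlda3* the unadjusted p from limma was 0.0383. Of 13 immediate-early genes tested 0 were singled out, with a median of 0.06. Of 9 heat shock and stress genes also 0 were singled out (median 0.12), beside 0.357% of all loci tested. These medians were both -0.01 after leaving out a WT library (WT-3 and WT-1, respectively).

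Other higher loci had varied functions. *Nts* (neurotensin, a peptide) had 8.14, 7.15 and 7.76 FPKM in WT and 8.47 to 17.0 FPKM (median 10.1) in Cre, a log2 difference of 0.44 (standard error 0.16), with MUT-2 far above the others. *Aldh1a3*, which makes retinoic acid, had 15.4, 18.4 and 15.3 FPKM in WT and 19.1 to 25.4 FPKM (median 21.4) in Cre, a log2 difference of 0.39 (standard error 0.11). *Rrad*, a small GTPase, had 4.34, 4.83 and 3.97 FPKM in WT and 5.41 to 6.85 FPKM (median 6.52) in Cre, a log2 difference of 0.45 (standard error 0.11). *Slc39a11*, a zinc transporter, differed by 0.35, with HET-1 and HET-3 at 7.22 and 7.16 FPKM and the other Cre libraries at 4.35 to 5.06 FPKM, just above the highest WT value of 4.30.

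Genes of the matrix and mesenchyme were also among the higher loci, with smaller differences. *Col9a1*, a collagen IX chain, had 3.95 to 4.50 FPKM in WT and 5.07 to 6.15 FPKM in Cre (log2 difference 0.30). *Twist2*, a mesenchymal transcription factor, differed by 0.18, *Olfm1*, a secreted olfactomedin, by 0.18, *Tgm2*, a transglutaminase that crosslinks proteins, by 0.13 and *Ccdc80*, a matrix protein, by 0.07. *Olfm1* varied little among the Cre libraries (19.8 to 20.6 FPKM) and lay above WT values of 16.1 to 18.6 FPKM. Of 16 collagen and fibronectin genes on the list 14 had a higher mean in Cre, with a median of 0.07, and 0 were singled out. The shares over all loci tested were 51.2% and 0.357%. Without WT-3 the median of this list was -0.08. The remaining higher loci were *Rhpn2*, *Serinc2*, *Lhfpl2* and *Pdap1*, with log2 differences of 0.22, 0.16, 0.12 and 0.09. For 10 of the 25 higher loci the difference was under 0.2 in size.

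**Figure D2:**
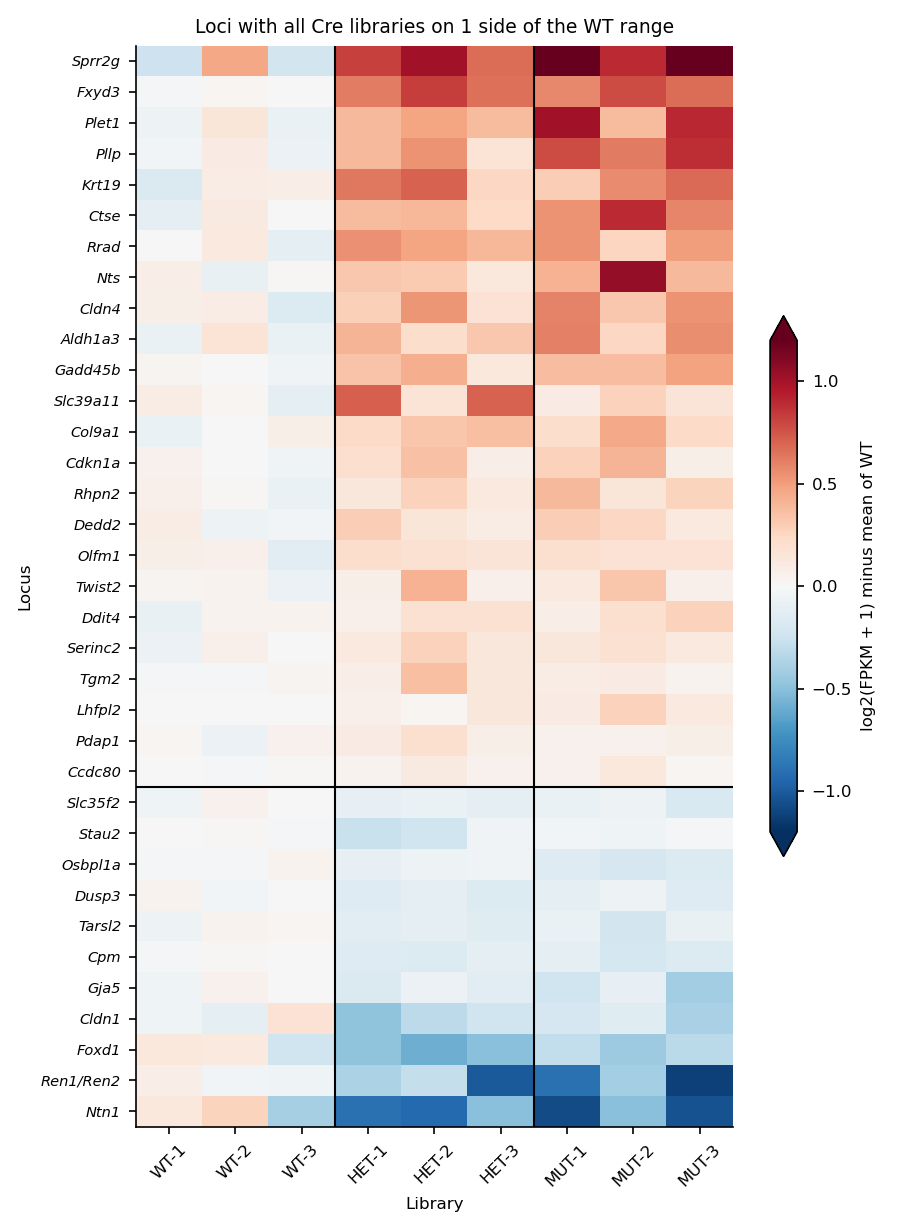
Each row is 1 of 35 singled-out loci and each column 1 library, and the colour gives log2(FPKM + 1) minus the mean of the 3 WT libraries (red higher, blue lower, colours saturate at the ends of the scale). Red rows (24) lead with *Sprr2g*, *Fxyd3* and *Plet1*, blue rows (11) end with *Foxd1*, *Ren1*/*Ren2* and *Ntn1*, and many middle rows are pale.

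The loci at the edges of the rule show how narrow some separations were. *Pdap1* was just inside, with its lowest Cre value of 71.9 FPKM (MUT-1) only 0.0011 above its highest WT value (WT-3) on the log2 scale. *Notum*, a Wnt inhibitor, was just outside, with HET-3 barely lower than WT-1 (both 5.30 FPKM after rounding). *Notum* otherwise had 5.93 to 7.48 FPKM in Cre and a log2 difference of 0.38. At the FPKM minimum, *Col9a1* was just inside with a Cre mean of 5.47 FPKM, and *Bmp2* was just outside with a WT mean of 4.30 FPKM. *Col9a1*, *Rrad*, *Slc39a11*, *Sprr2g*, *Pllp* and *Ctse* had WT means under the minimum and passed it only through their Cre means.

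The rule did not compare MUT with HET, and this contrast asks whether the loci also differ between 2 and 1 floxed *Ntn1* alleles. None of the 36 passed an adjusted p of 0.05 in limma over all loci (smallest adjusted p 0.843), as was the case over all 10076 loci tested (0.0%). At an unadjusted p under 0.05 there were 5 of the 25 higher loci and 0 of the 11 lower loci, beside 3.9% of all loci. The 5 were *Pllp*, *Ctse*, *Sprr2g*, *Plet1* and *Nts*, each higher in MUT, with log2 differences between MUT and HET of 0.40, 0.34, 0.60, 0.35 and 0.37. The MUT and HET libraries did not overlap at 5 loci of the higher set and 2 of the lower set, beside 9.55% of all loci. *Sprr2g*, *Pllp* and *Ctse* had WT means of 2.91, 3.86 and 4.99 FPKM and passed the FPKM minimum only through their Cre means. A high MUT level could help such loci to enter, so nothing is read from these counts.

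*Fxyd3* and *Krt19* had nearly equal means in both Cre genotypes. *Fxyd3* differed between MUT and HET by -0.02 (standard error 0.10) and *Krt19* by -0.02. Of the 25 higher loci, 15 had a mean farther from WT in MUT than in HET, as had 7 of the 11 lower loci. Set beside each other, the differences from WT were 0.83 in HET and 1.43 in MUT for *Sprr2g*, 0.41 and 0.76 for *Plet1*, -0.56 and -0.81 for renin, and -0.52 and -0.35 for *Foxd1*. Both differences use the same 3 WT libraries and so are not independent.

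**Figure D3:**
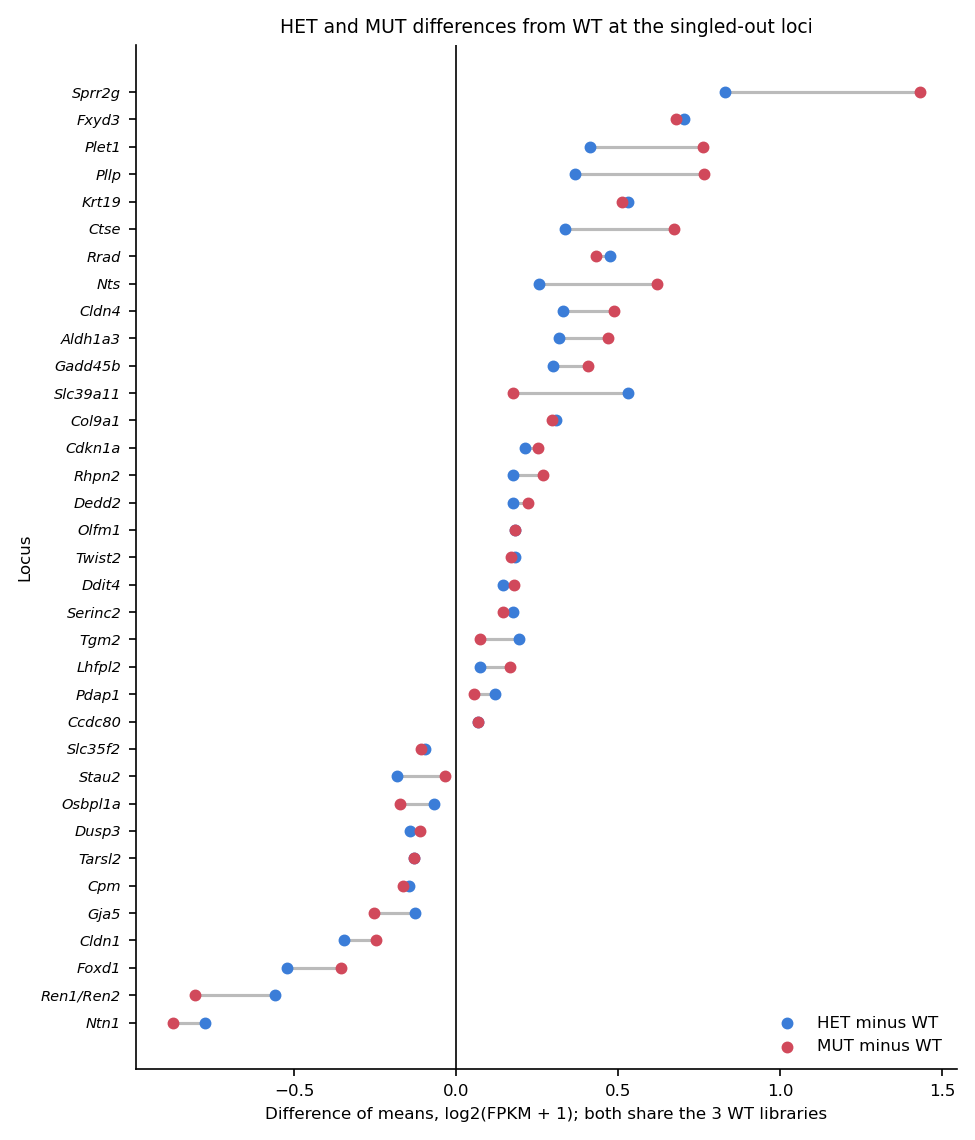
For each of 35 singled-out loci (y axis) the difference of mean log2(FPKM + 1) from WT (x axis) is shown for HET (blue) and MUT (red), with a grey line between them; both use the same 3 WT libraries. The points are far apart for *Sprr2g* (0.83 in HET, 1.43 in MUT) and close together for *Fxyd3* (0.70 and 0.68).

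Differentiated nephron genes were not among the singled-out loci, but their means lay mostly on the lower side. All 9 proximal tubule genes tested had a lower mean in Cre, with a median log2 difference of -0.34, beside 0.00 over all loci. A higher mean in Cre was seen at 51.2% of all loci tested. Every podocyte gene tested (7) had a lower mean, with a median of -0.16, and 3 of 4 genes of the loop of Henle and distal tubule, with a median of -0.45. For the loop gene *Slc12a1*, the sodium-potassium-chloride cotransporter, WT had 33.6, 19.6 and 32.2 FPKM and Cre had 11.9 to 28.3 FPKM (median 18.8), a log2 difference of -0.58 (standard error 0.23, unadjusted p = 0.0246). MUT-2 with 28.3 FPKM and HET-2 with 19.7 FPKM lay within the WT range. None of these genes had an adjusted p under 0.05.

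The nephron lists varied between libraries of the same genotype. The 12 proximal tubule genes on the list summed to 242.3, 250.7 and 308.2 FPKM in WT, 240.0, 258.3 and 154.1 FPKM in HET and 192.3, 309.0 and 172.2 FPKM in MUT. The 10 podocyte genes summed to 217.7, 127.0 and 168.0 FPKM in WT and 109.2 to 189.6 FPKM in Cre. Both sums were lowest in HET-3 and MUT-3 among the Cre libraries and highest in MUT-2. Without WT-1 the podocyte median was 0.02, while the proximal tubule median stayed between -0.44 and -0.19 in the alternatives tried. Genes of nephron progenitors (13 tested, median 0.05), early nephrons (11, -0.01), endothelium (16, -0.01), the cell cycle (14, -0.01), glycolysis and hypoxia (16, -0.04) and Wnt targets (9, 0.09) had 0 loci singled out, beside 0.357% of all loci tested. Of these 6 medians, all were within 0.1 of 0, and each changed sign in at least 1 alternative. *Six2*, the transcription factor of nephron progenitors, had 57.8 to 87.9 FPKM in WT and 79.4 to 106.5 FPKM in Cre.

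**Figure D4:**
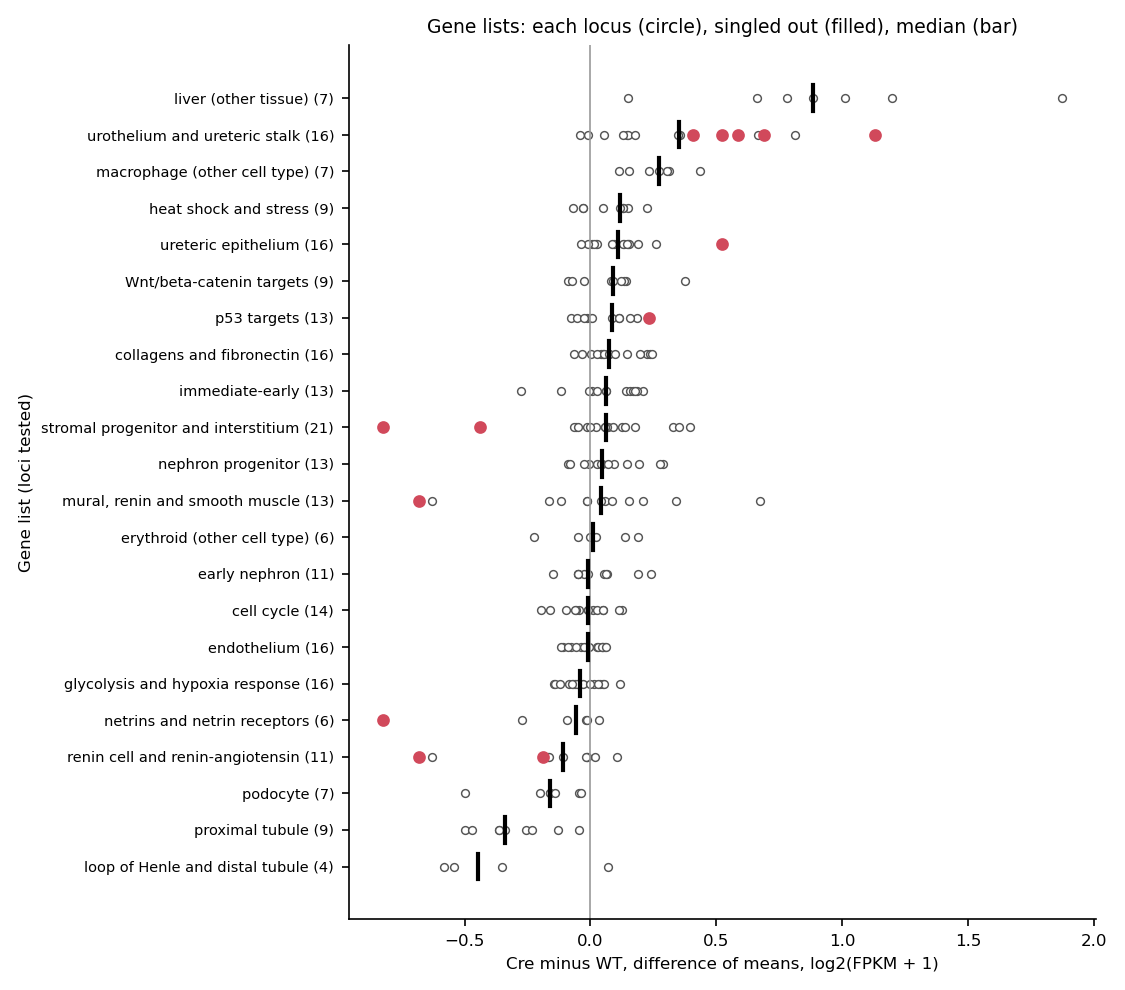
Each circle is 1 tested gene of a list (y axis, with the number tested), placed by its difference of mean log2(FPKM + 1) between Cre and WT (x axis); filled circles are singled-out loci and bars are medians. Medians run from -0.45 for the loop of Henle and distal tubule to 0.35 for urothelium and ureteric stalk, apart from liver genes (0.89), which rest on HET-2.

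Markers of other tissues and the libraries themselves also differed. The summed level of 13 liver genes was 42.5 to 58.8 FPKM in WT and 34.1 to 853 FPKM in Cre, the highest value being HET-2, with *Alb* at 243.8 FPKM, and without HET-2 the median log2 difference of the list was -0.07. All 7 macrophage genes tested had a higher mean in Cre, beside 51.2% of all loci tested (median 0.27, summed level of the list 66.6 to 87.8 FPKM in WT and 70.2 to 113.0 in Cre). Skeletal muscle genes summed to 6.08 to 11.8 FPKM in WT and 6.17 to 180.5 FPKM in Cre, the highest being HET-3. The 11 erythroid genes summed to 2012 to 2239 FPKM in WT and 1921 to 3493 in Cre. *Xist* was 187.1 FPKM in HET-3 and 172.8 FPKM in MUT-1, in which 4 Y-linked genes had at most 0.409 FPKM, whereas all 3 WT libraries expressed these genes. Their part in the differences between Cre and WT was not tested, apart from leaving out libraries. FPKM summed to 453753 (WT-1) to 545598 (WT-2) per library, and the spacing of low values gives WT-2 a rough depth of 0.578 and MUT-3 of 0.611 relative to WT-1.

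Among the higher loci, HET-3 was the lowest Cre library at 11 of 25 and the highest at 0, while MUT-2 was the highest at 7. The singled-out loci had low to moderate levels, with a median mean FPKM of 9.90 (higher) and 11.8 (lower) beside 18.5 over all loci tested. Median GC content was 52.6% and 49.3%, beside 49.8%. They lay on 14 chromosomes, most densely on chromosome 1 (6 of 548 tested loci, 1.09%) and chromosome 10 (4 of 492, 0.813%), with 0 on chromosomes X and Y. Within 10 Mb of *Foxd1*, 75 loci were tested and 1 other locus was singled out, *Lhfpl2*, 4.16 Mb away and higher in Cre (48.5 to 48.7 FPKM in WT, 49.4 to 59.1 in Cre). Within 10 Mb of *Ntn1*, 217 were tested and 0 others were singled out. *Ctse* and the renin locus lay 1.68 Mb apart on chromosome 1 and differed in opposite directions.

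At a further 164 loci (1.63%) all 6 Cre libraries lay outside the WT range, but on both sides of it. Their median WT range was 0.09 on the log2 scale, beside 0.34 over all loci tested. At 2 of them, *Chic2* and the joined locus of *Lrfn1* and *Mir466f-2*, all MUT libraries lay above and all HET libraries below WT. *Chic2*, a palmitoylated membrane protein gene, had 11.6 to 12.2 FPKM in WT, 9.93, 11.1 and 11.4 FPKM in HET and 12.3, 13.3 and 12.4 FPKM in MUT.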

How the data were processed

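Whole E15.5 kidneys were sequenced from TruSeq Stranded mRNA libraries, with 3 kidneys of each genotype taken from 3 crosses. The authors ran a Tuxedo-type workflow (STAR alignment to mm10, cufflinks and cuffmerge assembly, CuffDiff quantification), and the FPKM of 24138 loci were used unaltered as deposited. Of these, 355 carry several gene names. Versions, annotation and strand setting are not given in the sources used here. Read numbers are unknown, so no counting error is given, and p-values measure the spread between these libraries.

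A locus was tested if the Cre or the WT mean reached 5 FPKM. The fit used limma 3.58.1 (R 4.3.3) on log2(FPKM + 1) (lmFit, eBayes with trend; two-sided, Benjamini-Hochberg over all loci tested), with 6 Cre against 3 WT libraries, and with separate genotype means for MUT against HET. A fold on this scale understates the change of low genes. The planned exact permutation test of *Ntn1* and *Foxd1* is not reported, since non-overlapping groups fix its p at the smallest possible value. Tables were made in Python 3.11.15. The fits were tested on simulated data. Genes named are *Ntn1*, *Foxd1*, the singled-out loci (up to 12 with the largest difference in each direction), singled-out members of each list or else up to 2 with the largest difference, loci at the edges of the rule and liver, erythroid and sex-linked markers. Others are named for comparison and were chosen after their values were seen. The members and gene lists were chosen with earlier results of these data known. GC content came from GENCODE mouse release 21. Alternatives were pseudocounts of 0.1 and 3, FPKM minimums of 1 and none, median-ratio and quantile rescaling, a GC correction (spline, 5 degrees of freedom), a replicate block, separate HET and MUT means, no trend, no loci on chromosomes X and Y, and each library left out. The use of only the 7 libraries with Y-linked expression was added after the data were seen. A singled-out locus and a member of a gene list, both included in the counts, are not reported here.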

Additional observations from a re-analysis of the deposited data

Results flagged for a closer look

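In 13 of 70 loci examined, 1 of the 6 Cre libraries stood apart from the other 5 by more than 0.625 of their range on the log2 scale (chance gives about 1 in 20). Liver genes did so in HET-2, where *Alb* was 243.8 FPKM, *Afp* 216.5, *Apoa2* 95.2, *Apoa1* 88.4, *Trf* 78.4, *Ttr* 52.0 and *Ahsg* 43.6 FPKM. In HET-3 the skeletal muscle genes *Mylpf* and *Acta1* were 60.0 and 41.5 FPKM. Among the singled-out loci, *Nts* was 17.0 FPKM in MUT-2, and *Tgm2* and *Pdap1* were 20.1 and 79.4 FPKM in HET-2. The macrophage gene *C1qb* was 11.3 FPKM in MUT-1, lower than in the other Cre libraries.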

How the results depend on the processing

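With the replicate number as a block, 1 locus again had an adjusted p under 0.05 (*Fxyd3*, adjusted p = 0.0458), and 94 loci in place of 69 had an unadjusted p under 0.05. The numbers were not taken as pairs, since the deviations of same-numbered libraries had a mean correlation of -0.03 (-0.32 to 0.55 over 9 pairs), beside 0.01 for different numbers. The block gave 0 MUT against HET calls among the 36 loci, as without it. The count of 1 called locus became 0 without an FPKM minimum, with separate HET and MUT means and in the 7 libraries with Y-linked expression, and was 0 to 1 when 1 library was left out. The 1 called without WT-2 was *Snord35a*, not *Fxyd3*. *Fxyd3* kept an adjusted p under 0.05 in 9 of 21 alternatives (0.0265 to 0.280 over all 21). The 36 non-overlapping loci (25 higher, 11 lower) became 62 with the GC correction (53 higher), 70 at an FPKM minimum of 1 (49 and 21), 233 with no minimum (129 and 104) and 458 in the 7 libraries (301 and 157), and the lower loci became 7 after quantile rescaling. Of the 36, 18 remained with the GC correction (13 higher, 5 lower), 26 after quantile rescaling and 32 after median-ratio rescaling. Leaving out 1 library gave 43 to 449 loci, 28 to 154 higher and 14 to 310 lower (449 without WT-1, 288 without WT-2, 104 without HET-3, 98 without WT-3, 93 without MUT-2 and 79 without MUT-1). Fewer WT libraries leave a narrower range and fewer Cre libraries have to lie outside it, so these counts grow by construction. The count in the 7 libraries grows likewise, and lower FPKM minimums admit more loci. The *Ntn1* difference was -1.02 to -0.69 and that of *Foxd1* -0.56 to -0.37 with 1 library left out. Of 38 loci followed through the alternatives (the 36, *Akr1b7* and *Alb*), 0 changed sign. For the 36 this lends no support, since the rule that chose them fixed it in most alternatives. With non-overlapping groups, leaving out libraries or changing the pseudocount or FPKM minimum cannot turn the sign. The other loci named were not followed. Of 26 list medians, 16 changed sign in at least 1 alternative. Without WT-3 they included collagens (-0.08), Wnt targets (-0.05), the mural list (-0.04), immediate-early genes (-0.01) and nephron progenitors (just below 0), and without WT-1 the renin list (0.04), podocytes (0.02), netrins (0.02) and heat shock genes (-0.01). Read depth, which sets the error of low FPKM, is unknown.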

Other observations

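Below the minimum of 5 FPKM, a further 34 loci with a mean of at least 1 FPKM on either side had all 6 Cre libraries on 1 side of the WT range, 24 higher and 10 lower. Their share among all loci at these levels is not given, so nothing is read from the count. Among the lower ones, *Bmp2*, a bone morphogenetic protein, had 4.79, 4.62 and 3.50 FPKM in WT and 2.66 to 3.50 FPKM in Cre, with MUT-2 almost equal to WT-3. *Cubn*, an endocytic receptor of the proximal tubule, had 3.88, 3.67 and 4.57 FPKM in WT, 3.40, 3.44 and 2.92 in HET and 3.64, 3.23 and 2.32 in MUT. *Kng2*, a kininogen, had 4.20, 2.74 and 3.71 FPKM in WT, 2.42, 2.34 and 1.23 in HET and 1.30, 2.72 and 1.25 in MUT.

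Among the higher ones were 2 more epithelial genes. *Krt80*, a keratin, had 0.971, 1.06 and 0.808 FPKM in WT, 1.21, 1.55 and 1.24 in HET and 2.57, 2.09 and 2.05 in MUT. *Cldn23*, a claudin, had 0.433, 0.430 and 0.285 FPKM in WT, 0.943, 1.00 and 1.09 in HET and 1.85, 0.813 and 2.01 in MUT. *Tbx18*, a transcription factor of the ureteric mesenchyme, had 3.19, 2.51 and 3.48 FPKM in WT, 3.83, 4.22 and 4.996 in HET and 3.86, 4.29 and 3.54 in MUT. These genes were chosen after their values were seen. At such low FPKM, a difference between libraries can rest on few reads, and their number is unknown.

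Of 85 genes of cytosolic ribosomal proteins tested, 78 had a higher mean in Cre and 0 were singled out, beside 51.2% and 0.357% of all loci tested. The median log2 difference was 0.10. This family was not followed through the alternatives, in which several list medians of similar size changed sign.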
